A study of Mus musculus with 30 samples.

Results

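The 40 genes described here are cell cycle and DNA replication genes, taken by symbol from the count tables of all 30 libraries, which hold 24746 gene symbols. They fall into 15 genes of the G1/S transition and S phase (the transcription factors E2f1, E2f2 and E2f8, the cyclins Ccne1 and Ccne2, Mcm2 to Mcm7, Pcna, Tyms, Rrm1 and Rrm2) and 25 genes of G2 and mitosis (Foxm1, Ccna2, Ccnb1, Ccnb2, Cdk1, Plk1, Aurka, Aurkb, Birc5, Bub1, Bub1b, Ttk, Cdc20, Ube2c, Cenpa, Cenpe, Cenpf, Kif11, Kif20a, Kif23, Prc1, Tpx2, Nusap1, Top2a and Mki67). The series profiled whole intestinal tissue of C3H/HeOuJ mice with 3′ tag libraries, in which each messenger RNA is read near its poly(A) tail. Terminal ileum came from germ-free (GF) mice, from specific-pathogen-free (SPF) mice and from GF mice that were given SPF microbiota at 5 weeks of age (COL), each at 6 and at 10 weeks of age and without further treatment. Distal colon came at 10 weeks from SPF and COL mice, either untreated or after drinking 1.5% dextran sulfate sodium (DSS) for 4 days and then water for 2 days; DSS is a sulfated sugar polymer used to injure the epithelium of the colon. Each of the 10 groups has 3 libraries. The labels name no genotype other than the strain, and they do not say that the libraries of a group come from separate mice. The p-values below therefore set group differences against the spread between libraries, which need not be that between mice. This spread was estimated over all libraries of a fit.

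Cells that divide first copy their genome and then segregate the copies. E2F transcription factors switch on the G1/S genes, whose products load the Mcm2 to Mcm7 helicase onto replication origins, make deoxynucleotides and hold the polymerase on DNA through the Pcna clamp. The G2/M genes are switched on later, by the B-Myb and Foxm1 machinery, and they drive spindle assembly, chromosome separation and the final cut between daughter cells. In the gut, division is concentrated in the crypts of the epithelium, and lymphoid follicles of the ileum can hold dividing B cells.

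The promoters of these genes are shown because the division into G1/S and G2/M genes is the comparison followed below. The protein complex DREAM is known to bind a short element called CHR, often near a CCAAT box, while E2F binds GC-rich words. RefSeq windows on GRCm38.p6, from 250 bases before to 50 bases after the start, held 33 of the 40 genes. Ccne2, Mcm4, Foxm1, Ccna2, Aurkb, Kif20a and Tpx2 had none in the table used here. The letters TTTGAA (CHR), on either strand, were in 76.2% of the windows of G2/M genes (15 of 20 genes), in 20% of those of G1/S genes (E2f2, E2f8 and Mcm2) and in 17.9% of all 32851 windows. The E2F words TTTGGCGC, TTTCCCGC, TTTCGCGC or TTTGCCGC, on either strand, were in 33.3% of G1/S windows (E2f2, Mcm3, Mcm5, Mcm6 and Mcm7), in 4.76% of G2/M windows (Cdk1) and in 2.26% of all windows. CCAAT, on either strand, was in 80% of G1/S, 90.5% of G2/M and 37.4% of all windows. A match describes letters, not a bound site, and matches can overlap. The windows of 3 genes of each class are given in the direction of the gene, with matches to any of these words or their reverse complements in capitals. They are Mcm3 (chr1:20820263-20820562, minus strand), Mcm5 (chr8:75109259-75109558, plus strand), the first of 2 windows of E2f2 (chr4:136172024-136172323, plus strand), Plk1 (chr7:122159185-122159484, plus strand), Ccnb2 (chr9:70421505-70421804, minus strand) and Cenpa (chr5:30666636-30666935, plus strand).
Mcm3: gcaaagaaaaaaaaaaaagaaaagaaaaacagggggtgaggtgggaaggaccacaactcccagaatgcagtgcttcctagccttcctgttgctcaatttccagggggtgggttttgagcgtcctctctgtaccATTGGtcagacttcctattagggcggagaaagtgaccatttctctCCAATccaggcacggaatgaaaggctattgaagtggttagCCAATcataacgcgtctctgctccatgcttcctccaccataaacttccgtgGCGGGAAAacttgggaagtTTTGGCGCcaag
Mcm5: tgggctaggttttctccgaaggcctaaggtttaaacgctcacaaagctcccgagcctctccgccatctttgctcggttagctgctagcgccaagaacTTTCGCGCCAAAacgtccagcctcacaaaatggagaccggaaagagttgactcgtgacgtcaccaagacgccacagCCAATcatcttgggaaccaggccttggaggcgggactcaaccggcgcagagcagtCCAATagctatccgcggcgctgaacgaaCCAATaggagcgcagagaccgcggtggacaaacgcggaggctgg
E2f2: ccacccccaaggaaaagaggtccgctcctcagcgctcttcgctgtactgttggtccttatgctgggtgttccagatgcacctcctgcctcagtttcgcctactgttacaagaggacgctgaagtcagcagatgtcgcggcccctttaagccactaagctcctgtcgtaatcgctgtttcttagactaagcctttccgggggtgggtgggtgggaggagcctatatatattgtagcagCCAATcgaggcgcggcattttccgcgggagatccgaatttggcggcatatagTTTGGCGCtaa
Plk1: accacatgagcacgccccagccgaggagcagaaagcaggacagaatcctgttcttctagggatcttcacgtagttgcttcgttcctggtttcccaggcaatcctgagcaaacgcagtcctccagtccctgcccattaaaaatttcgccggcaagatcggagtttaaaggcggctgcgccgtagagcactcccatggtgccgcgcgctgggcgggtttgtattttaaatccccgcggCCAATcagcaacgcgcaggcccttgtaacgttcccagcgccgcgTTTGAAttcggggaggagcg
Ccnb2: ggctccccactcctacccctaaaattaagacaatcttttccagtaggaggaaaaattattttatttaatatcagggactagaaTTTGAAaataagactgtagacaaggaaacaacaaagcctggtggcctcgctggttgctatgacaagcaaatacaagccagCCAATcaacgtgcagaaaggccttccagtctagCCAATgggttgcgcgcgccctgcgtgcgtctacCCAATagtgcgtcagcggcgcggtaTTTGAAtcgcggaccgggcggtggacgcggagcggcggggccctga
Cenpa: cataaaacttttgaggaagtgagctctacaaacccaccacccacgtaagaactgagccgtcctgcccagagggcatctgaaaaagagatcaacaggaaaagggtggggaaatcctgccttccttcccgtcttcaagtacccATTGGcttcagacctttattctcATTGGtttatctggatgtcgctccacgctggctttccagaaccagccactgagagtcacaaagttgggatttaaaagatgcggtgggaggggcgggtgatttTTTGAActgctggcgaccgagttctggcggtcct
In Plk1, Ccnb2 and Cenpa a TTTGAA lies in the last 50 bases, after the start, with CCAAT or its reverse complement before it. In Mcm3 and E2f2 an E2F word lies in those last 50 bases, and in Mcm5 the overlapping pair of E2F words lies upstream.

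Levels are given as CPM, the read count of a gene scaled to a common total of reads assigned to genes, listed for replicates 1, 2 and 3 in that order. Totals of assigned reads ran from 3830539 to 6791455 per colon library and from 2233837 to 9088573 per ileum library, of which the 40 genes took 3393 to 18829 and 4495 to 16064 reads. All 40 passed the filter on low counts in each fit. Fold changes are on a log2 scale with a standard error, from edgeR's quasi-likelihood test, and a gene is called changed at an adjusted p under 0.05 over all genes tested. Because reads near a gene's 3′ end were counted, levels are compared between groups and not between genes. As a check of the tissue labels, summed markers of ileum stood at 16067 to 41629 CPM in the ileum libraries and at 26.8 to 281 CPM in the colon libraries. Summed markers of colon stood at 10334 to 19005 CPM in untreated colon and at 4130 to 9426 CPM in ileum. In DSS-treated colon they stood at 2607 to 8470 CPM, so they separated untreated colon, but not treated colon, from ileum. The libraries are from tissue extracts, so fewer cells of a type and less RNA per cell cannot be told apart.

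Across the 10 groups, the mean level was highest in the DSS-treated SPF colon for 27 of the 40 genes and in the DSS-treated COL colon for 10. It was highest in 10-week ileum for the remaining 3 (2 in SPF, 1 in COL). The lowest mean was in untreated COL colon for 22 genes and in untreated SPF colon for 14. The ratio of highest to lowest group mean ran from 1.87 for Pcna to 9.43 for Birc5, with a median of 3.69. Summed over the class, G1/S genes in SPF colon stood at 304, 291 and 439 CPM untreated and at 833, 997 and 1384 CPM after DSS. In COL colon the sums were 367, 385 and 594 CPM untreated and 926, 1019 and 848 CPM after DSS. The G2/M sums were 582, 626 and 799 CPM in untreated SPF colon, against 1640, 2323 and 3062 CPM after DSS. They were 344, 520 and 681 CPM in untreated COL colon, against 1841, 1938 and 1726 CPM after DSS. In neither class did the treated and untreated colons overlap.

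**Figure D1:**
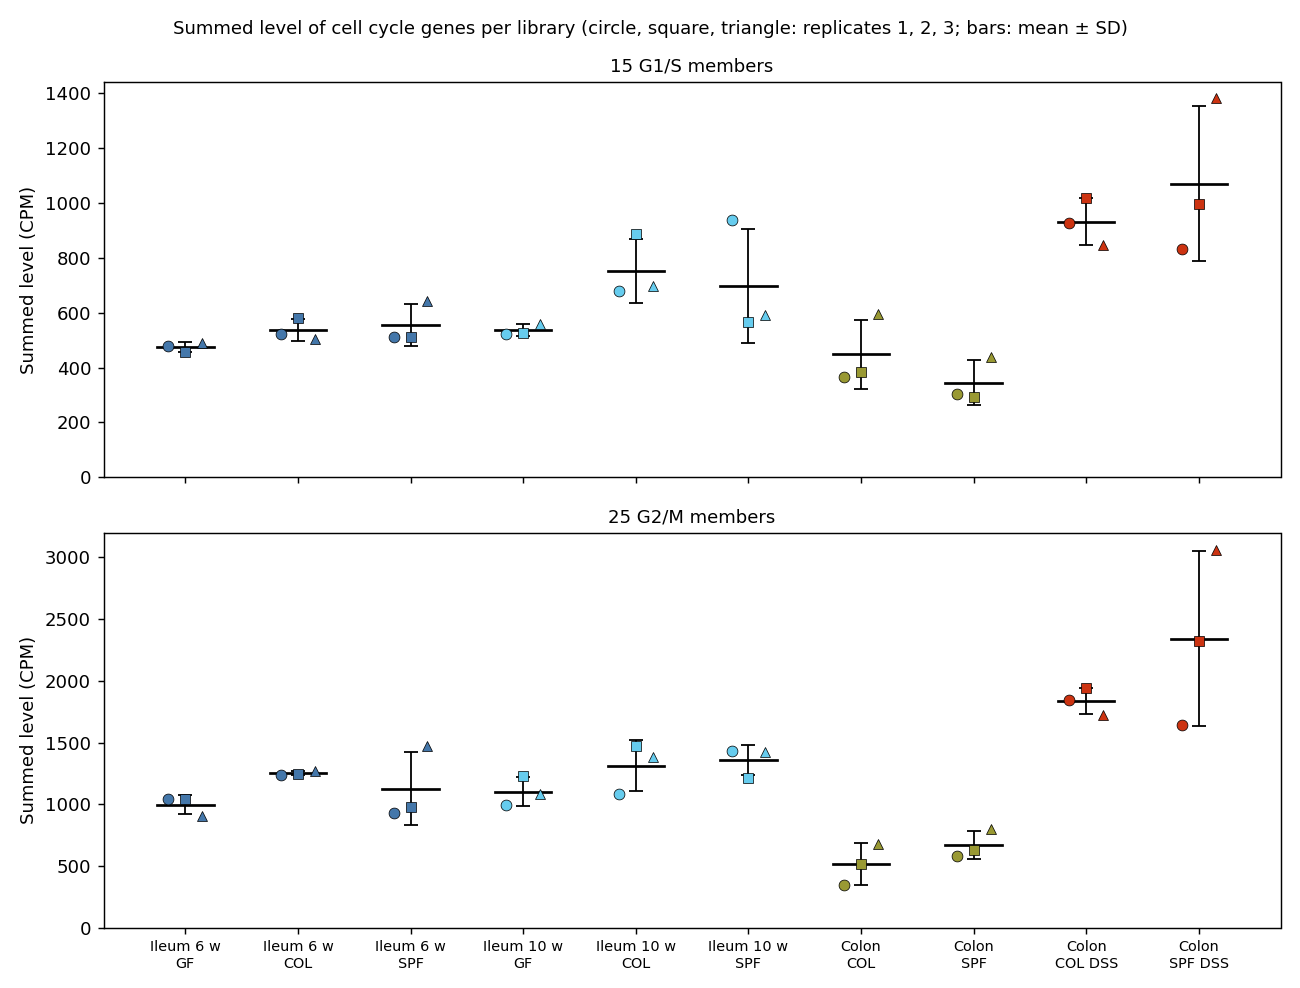
Summed level in CPM of the 15 G1/S genes (top) and the 25 G2/M genes (bottom) in each library of the 10 groups, with symbols for replicates 1 to 3 and bars for mean ± SD. The group means of the untreated colons are the lowest in both panels, while 1 untreated COL library, at 594 CPM of G1/S genes, lies among the ileum libraries, and each DSS-treated colon library lies above all untreated colon libraries.

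In SPF colon, the entry genes of the cycle rose strongly after DSS. E2f2, an E2F transcription factor, stood at 12.8, 19.2 and 16 CPM in untreated SPF colon and at 121, 94.6 and 106 CPM after DSS, a log2 change of 2.81 ± 0.23 (adjusted p = 6.5e-06). Ccne1, the cyclin that partners Cdk2 at the start of S phase, stood at 1.83, 6.25 and 3.89 CPM against 25.6, 36.2 and 39.4 CPM (3.13 ± 0.41, adjusted p = 0.00018). For E2f2 and Ccne1 every treated library exceeded every untreated one. E2f8, a repressor of the E2F family, rose by 1.96 and Ccne2, the second E cyclin, by 1.42 (adjusted p = 0.039) on the log2 scale. E2f1, the E2F gene most often named as an activator of S phase, was at 17.2, 13.6 and 57.2 CPM against 66.7, 56.1 and 72.5 CPM. Its groups overlapped because untreated replicate 3 was near the treated level, and its change of 1.21 ± 0.44 was not called (adjusted p = 0.056).

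The 6 subunits of the replicative helicase all rose in SPF colon, by 2.30 (Mcm3), 2.15 (Mcm4), 2.14 (Mcm5), 1.41 (Mcm6), 1.37 (Mcm2) and 0.89 (Mcm7) on the log2 scale. Mcm3 stood at 19.1, 12 and 12.3 CPM untreated and at 49.3, 72.4 and 83.1 CPM after DSS (SE 0.30, adjusted p = 0.00018). Mcm5 stood at 28.7, 25 and 44.2 CPM against 94.5, 131 and 189 CPM (SE 0.31, adjusted p = 0.00038). Rrm2, the regulated subunit of ribonucleotide reductase, rose from 14.6, 9.15 and 12.5 CPM to 40.4, 63.5 and 124 CPM (2.71 ± 0.38, adjusted p = 0.00028), and its partner Rrm1 rose by 1.67. Pcna, the sliding clamp, moved less, from 20.6, 26.1 and 20.8 CPM to 27.5, 44.2 and 45.8 CPM (0.86 ± 0.24, adjusted p = 0.016). Tyms, which makes thymidylate, was at 19.1, 22.8 and 45.1 CPM untreated and at 33.9, 33.6 and 37.3 CPM treated, so the groups overlapped and it was not called (0.33 ± 0.29, adjusted p = 0.41).

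Of the G2/M genes, 21 of 25 rose in the same SPF comparison. Birc5, the survivin subunit of the chromosomal passenger complex, stood at 44.4, 33.9 and 71 CPM untreated and at 175, 528 and 706 CPM after DSS, the steepest G2/M change (3.30 ± 0.46, adjusted p = 0.00045). Plk1, a kinase of mitotic entry and spindle assembly, stood at 41.2, 24.1 and 36.8 CPM against 119, 154 and 162 CPM (2.16 ± 0.28, adjusted p = 0.00018). The spread within the treated group was wider for Birc5 than for Plk1. Aurka, a spindle pole kinase, rose by 2.17 and Aurkb, the kinase of the passenger complex, by 1.23. Ube2c and Cdc20, which serve the anaphase-promoting ubiquitin ligase, rose by 2.33 and 2.25. Foxm1, a transcription factor of G2/M genes, rose by 1.96, and of its targets Ccnb2 rose by 1.69, Ccna2 by 1.76 and Cdk1 by 1.29.

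Top2a, the topoisomerase that untangles replicated chromosomes, stood at 52.5, 56.2 and 107 CPM untreated and at 227, 221 and 281 CPM after DSS in SPF colon (1.82 ± 0.26, adjusted p = 0.00037). Mki67, the Ki-67 protein that coats mitotic chromosomes, stood at 29.2, 40.6 and 40.9 CPM against 81.6, 92.2 and 152 CPM (1.62 ± 0.31, adjusted p = 0.002). Neither gene's groups overlapped. Of the spindle motors and midzone genes, Tpx2 rose by 1.99, Prc1 by 1.26, Kif11 by 1.25 and Kif23 by 1.11, and of the centromere genes Cenpa rose by 1.53, Cenpe by 1.42 and Cenpf by 1.11. The spindle checkpoint genes Bub1b and Bub1 rose by 1.66 and 1.21 (adjusted p = 0.047 for Bub1). Not called were Ccnb1 (1.18, adjusted p = 0.053), Nusap1 (0.78, adjusted p = 0.054), Ttk (1.18, adjusted p = 0.056) and Kif20a (0.62, adjusted p = 0.13).

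In all, 34 of 40 genes were called higher and 0 lower in DSS-treated than in untreated SPF colon, while 12.2% of all genes tested were called higher and 11.9% lower; DESeq2 called 38 higher and 0 lower, and the fitted change was positive for all 40. The edgeR calls were 13 of 15 G1/S genes, with a median log2 change of 1.67 over the class, and 21 of 25 G2/M genes, with a median of 1.53; the median over all genes was -0.03. Calls of 27 of the 34 held in each alternative run. Those of Ccne2, Mcm7, Pcna, Aurkb, Bub1, Cenpe and Kif23 were lost in at least 3 runs that left out 1 library, with an adjusted p of at most 0.16 in any alternative. All of these but Cenpe were also lost in a fit on the compared libraries only. Bub1 was further lost with no filter (adjusted p = 0.056) and with the replicate number as a block (adjusted p = 0.057). In 36 genes the treated libraries lay above the untreated ones without overlap, as did 14.5% of all genes. Leaving out 1 library at a time left 27 to 36 genes called. DSS replicate 3 held the highest treated level for 35 of the 40 genes, and without it 27 were called. That library also had the highest summed neutrophil markers, at 1357 CPM against 17.4 and 90.8 CPM in the other treated SPF libraries and 0.783 to 2.45 CPM in the untreated ones. Their part in the result was not tested.

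In COL colon, E2f2 again stood at 16, 14.3 and 15 CPM untreated and rose to 96.4, 73.9 and 95 CPM after DSS (2.63 ± 0.23, adjusted p = 1.1e-05). E2f8 rose by 1.98, Ccne1 by 1.80, Rrm2 by 2.20 and Rrm1 by 1.14. Of the helicase subunits Mcm5 rose by 1.43, Mcm4 by 1.18 (adjusted p = 0.038), Mcm3 by 1.15 (adjusted p = 0.023) and Mcm7 by 1.00 (adjusted p = 0.042). Mcm2 (0.86, adjusted p = 0.11) and Mcm6 (0.85, adjusted p = 0.083) were not called. The same held for E2f1 (0.61, adjusted p = 0.43), Ccne2 (0.55, adjusted p = 0.52), Tyms (0.60, adjusted p = 0.22) and Pcna (0.36, adjusted p = 0.39).

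Nearly the whole G2/M class rose in COL colon. Cenpa, the histone variant of the centromere, stood at 12.5, 17.1 and 21.8 CPM untreated and at 102, 97.1 and 82.7 CPM after DSS (2.53 ± 0.28, adjusted p = 7.1e-05). Plk1 stood at 11.8, 20.9 and 23.9 CPM against 127, 92 and 106 CPM (2.59 ± 0.29, adjusted p = 7.5e-05), and Ccnb2, a cyclin of mitotic entry, at 13, 22.4 and 26.8 CPM against 86.1, 80 and 128 CPM (2.33 ± 0.31, adjusted p = 0.0003). The groups of these 3 genes were far apart. Kif20a, a kinesin of the central spindle that was not called in SPF colon, stood at 9.47, 17.1 and 18.5 CPM against 29.4, 51.3 and 46.4 CPM (1.58 ± 0.30, adjusted p = 0.0044). Birc5 stood at 31.2, 61.5 and 64.8 CPM against 251, 191 and 254 CPM (2.22, adjusted p = 0.008). Prc1, which bundles midzone microtubules, rose by 2.17 ± 0.29 (adjusted p = 0.00028), Bub1b by 2.36, Cdc20 by 2.30, Tpx2 by 2.10, Aurkb by 2.02 and Mki67 by 1.41. Bub1 was the G2/M gene not called (1.21, adjusted p = 0.085).

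In all, 33 of 40 genes were called higher and 0 lower after DSS in COL colon, where 4.14% of all genes were called higher and 3% lower; DESeq2 also called 33 higher and 0 lower, and the fitted change was again positive for all 40. The edgeR calls were 9 of 15 G1/S genes, with a median log2 change of 1.14, and 24 of 25 G2/M genes, with a median of 1.72; the median over all genes was 0.01. The groups did not overlap in 34 of the 40, as in 14.2% of all genes. Leaving out 1 library left 21 to 32 genes called, with 21 without untreated COL replicate 1 and 21 without untreated COL replicate 2. Calls of 19 of the 33 held in each alternative run. Mcm4 and Mcm7 lost the call in 5 of the 6 runs that left out a library (adjusted p up to 0.18 and 0.17), Ttk in 5 (up to 0.096), Mcm3 in 4 (up to 0.13) and Nusap1 in 4 (up to 0.14). Ccne1, Mcm5, Rrm1, Foxm1, Ccnb1, Aurka, Kif11, Kif23 and Mki67 lost it in 1 to 3. Untreated replicate 3 held the highest untreated level for 35 of the 40 genes, and replicate 1 the lowest for 30. Summed neutrophil markers were at 12.2 to 32.5 CPM in the treated and 2.39 to 4.65 CPM in the untreated COL libraries.

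**Figure D2:**
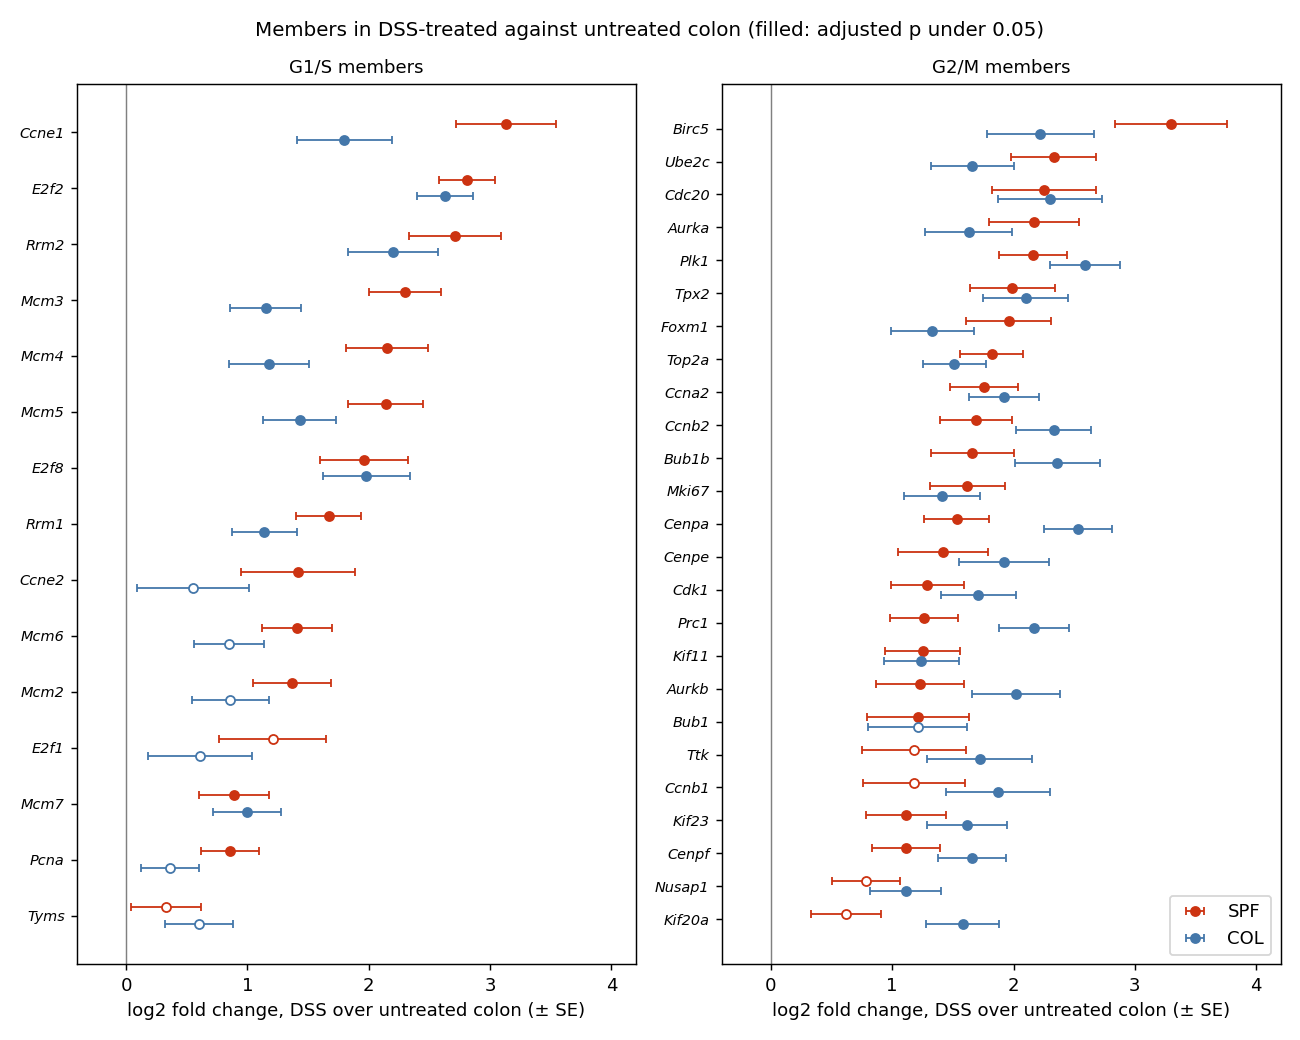
Log2 fold change ± SE of each of the 40 genes after DSS in SPF colon (red) and COL colon (blue), with filled points for an adjusted p under 0.05. All 40 genes lie above 0 in both comparisons, 34 filled in SPF and 33 in COL.

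Set side by side, 29 genes were called higher after DSS in both kinds of mice. The change was larger in SPF for 12 of the 15 G1/S genes and larger in COL for 17 of the 25 G2/M genes. A test of the difference itself (the change in COL minus the change in SPF) called 0 of the 40 genes with edgeR and 0 with DESeq2, where edgeR called 0% of all genes. At an unadjusted p under 0.05 it gave 5 of the 40, while 8.73% of all genes passed that level. For Ccne1 the difference was -1.33 ± 0.55 (adjusted p = 0.56) and for Mcm3 it was -1.16 ± 0.41 (adjusted p = 0.54). For Cenpa it was 1.00 ± 0.37 (adjusted p = 0.54), and for Kif20a and Prc1 it was 0.96 and 0.91. The median difference was -0.53 over G1/S genes and 0.43 over G2/M genes.

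The balance between the classes was followed as the log2 ratio of the G2/M sum to the G1/S sum in each library. It was 0.94, 1.10 and 0.86 in untreated SPF colon (0.97 ± 0.12, SD, n = 3) and 0.98, 1.22 and 1.15 after DSS (1.11 ± 0.12, SD, n = 3). In COL colon it was -0.09, 0.43 and 0.20 untreated (0.18 ± 0.26, SD, n = 3) and 0.99, 0.93 and 1.03 after DSS (0.98 ± 0.05, SD, n = 3). The 3 untreated COL libraries were the lowest of all colon libraries, and the other 3 colon groups overlapped. The difference after DSS was 0.80 in COL colon and 0.15 in SPF colon, and that between untreated COL and SPF colon was -0.79. The SPF groups overlapped, and with class means of log2(CPM + 1) in place of sums the SPF change was -0.15. The differences of 0.80 and -0.79 share the untreated COL libraries. In the ileum the group means ran from 0.80 ± 0.17 (10-week COL) to 1.23 ± 0.12 (6-week COL). The other ileum groups lay at 0.99 ± 0.34 (10-week SPF), 1.04 ± 0.16 (10-week GF), 1.06 ± 0.16 (6-week GF) and 1.00 ± 0.17 (6-week SPF). COL ileum was at 0.68, 0.73 and 0.99 at 10 weeks and at 1.25, 1.10 and 1.34 at 6 weeks. These ages did not overlap (difference -0.43, or -0.52 to -0.37 without 1 library), while the groups of the other ileum comparisons overlapped. Untreated COL colon lay below 10-week COL ileum without overlap (-0.62), again with the same untreated COL colon libraries.

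**Figure D3:**
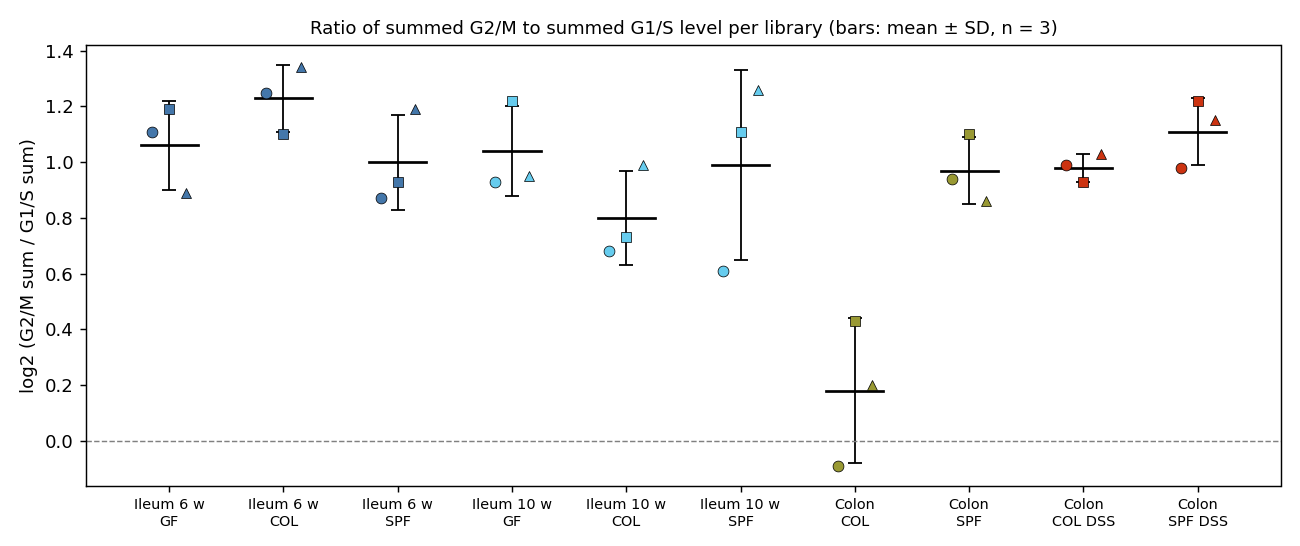
Log2 ratio of the summed G2/M level to the summed G1/S level in each library of the 10 groups, with bars for mean ± SD. The untreated COL colon libraries, at -0.09, 0.43 and 0.20, lie below the other colon libraries.

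Gene by gene, untreated COL and SPF colon gave 0 of 40 calls in edgeR, which called 0% of all genes in this comparison, and 1 in DESeq2 (Cenpa, adjusted p = 0.048). Cenpa stood at 12.5, 17.1 and 21.8 CPM in COL and at 35.2, 47.1 and 28.4 CPM in SPF, with no overlap (-1.14 ± 0.27, adjusted p = 0.34). Without untreated SPF replicate 3 its change was -1.30 (adjusted p = 0.038). At an unadjusted p under 0.05 there were 6 of the 40 genes, where 7.69% of all genes passed, and all 6 were G2/M genes with lower levels in COL: Cenpa, Prc1, Plk1, Ccna2, Ccnb2 and Cenpf. The fitted change was negative for 21 of 25 G2/M genes (median -0.42) and positive for 13 of 15 G1/S genes (median 0.31). Without overlap of the groups, 6 G2/M genes were lower in COL, as were 5.76% of all genes, and 1 G1/S gene was higher, as were 7.07%. After DSS, COL and SPF colon differed in 0 of 40 genes in edgeR (0.00778% of all genes were called higher, 0% lower) and in 0 in DESeq2, with 3 at an unadjusted p under 0.05 (8.01% of all genes). The medians there were -0.29 for G1/S and -0.14 for G2/M genes.

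Other genes of the same pathways were taken from lists kept apart from the 40. Of 32 further replication genes, 18 were called higher and 0 lower after DSS in SPF colon (median log2 change 1.04), where 12.2% of all genes were called higher, among them Fen1, the flap endonuclease (2.83 ± 0.37, adjusted p = 0.00018), Rpa2, of the single-strand binding complex (1.70), and Gmnn, the licensing inhibitor geminin (1.58). In COL colon 9 of the 32 were called higher (median 0.87), where 4.14% of all genes were, including Fen1 (1.58) and Gmnn (1.29). Of 35 further mitosis genes, 28 were called higher in SPF (median 1.42) and 27 in COL (median 1.75). Racgap1, of the centralspindlin complex, rose by 1.96 and 2.49, and the kinase Melk by 2.11 and 2.49. Of 7 tested genes of a list of D cyclins, their kinases, Cdk2 and Myc (Ccnd1, Ccnd2, Ccnd3, Cdk2, Cdk4, Cdk6 and Myc), 2 were called higher in SPF and 1 in COL. Ccnd1, a D cyclin, rose by 1.43 (adjusted p = 0.0027) in SPF and by 1.34 (adjusted p = 0.0095) in COL, and Cdk2 rose by 1.40 (adjusted p = 0.0028) in SPF.

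Of 14 genes that restrain the cycle, 1 was called higher and 3 lower after DSS in SPF colon, where 12.2% of all genes were called higher and 11.9% lower. In COL colon 2 were called lower, where 3% of all genes were. The gene called higher was Rbl1, the p107 pocket protein, at 0.84 (adjusted p = 0.026), named after its value was seen. Btg1, an anti-proliferative factor, fell by 1.72 and 1.82, and Cdkn2b, an inhibitor of cyclin D kinases, fell by 1.20 (adjusted p = 0.0025) and 0.96. Rbl2, the p130 pocket protein of DREAM, fell by 1.37 in SPF colon. Of 7 crypt stem and progenitor genes, Cdca7 was called higher in both (0.67 in SPF, 0.79 in COL), while Tnfrsf19 (-1.99 and -2.16) and Sox9 (-0.81 and -1.06) were called lower.

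Markers of other cells moved in the same libraries. Summed crypt stem markers stood at 339 to 598 CPM in DSS-treated SPF colon against 591 to 803 CPM untreated, and at 367 to 544 CPM against 589 to 839 CPM in COL. Summed smooth muscle markers stood at 983 to 2805 CPM against 5336 to 6375 CPM in SPF (6 of 8 genes called lower) and at 1301 to 4088 CPM against 4931 to 5257 CPM in COL (0 of 8). Summed colonocyte markers stood at 3620 to 7747 CPM against 7854 to 13126 CPM in SPF (4 of 9 called lower) and at 5062 to 8204 CPM against 9865 to 10408 CPM in COL (2 of 9). General epithelial markers stood at 6649 to 10728 CPM against 7474 to 11087 CPM in SPF, with 0 of 10 called. Over all genes 11.9% were called lower in SPF and 3% in COL. The part of these markers in the results on the 40 genes was not tested.

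In the ileum the 40 genes varied less with the microbiota. At 6 weeks, 2 genes were called higher and 0 lower in SPF than in GF ileum, where 4.37% of all genes were called higher and 3.33% lower. E2f2 stood at 47.8, 42.1 and 46 CPM in GF and at 71.1, 65.9 and 70.2 CPM in SPF (0.81 ± 0.19, adjusted p = 0.0063). Birc5 stood at 89.3, 113 and 109 CPM against 127, 153 and 209 CPM (0.84 ± 0.20, adjusted p = 0.0078). Neither gene's groups overlapped; in 7 of the 40 genes all SPF libraries were above all GF libraries in unscaled CPM, as in 8.08% of all genes. However, E2f2 was not called without GF replicate 2 and Birc5 not without GF replicate 1.

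In COL against GF ileum at 6 weeks, 3 genes were called higher and 0 lower, where 2.78% of all genes were called higher and 1.86% lower. Cdk1, the kinase that drives mitosis, stood at 49, 46.5 and 41.6 CPM in GF and at 64.7, 83.3 and 78.5 CPM in COL (0.98 ± 0.22, adjusted p = 0.0072), and it stayed called in each alternative run (adjusted p from 0.0011 to 0.043). Birc5 (0.77, adjusted p = 0.022) and Ccna2 (0.71, adjusted p = 0.032) were the other two. Rrm2, at 1.02, was not called (adjusted p = 0.051). The fitted change was positive for all 25 G2/M genes (median 0.55) and 13 of 15 G1/S genes (median 0.43), and 21 of the 40 had an unadjusted p under 0.05, as did 17.2% of all genes. In 13 of the 40 all COL libraries were above all GF libraries, as in 4.96% of all genes. Leaving out 1 library gave 1 call without GF replicate 2, COL replicate 2 or COL replicate 3 and 6 calls without COL replicate 1. Both comparisons use the same GF libraries. The scaling of libraries matters here: the trimmed-mean factors raised the fitted log2 changes over those of plain CPM by 0.20 (SPF against GF) and 0.24 (COL against GF) at 6 weeks, where the median log2 ratio of CPM over all genes was -0.21 and -0.25.

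At 10 weeks, 3 genes were called higher and 0 lower in SPF than in GF ileum, where 4.22% of all genes were called higher and 1.98% lower. E2f2 stood at 34.4, 42.4 and 54.9 CPM in GF and at 72.5, 78.3 and 57.7 CPM in SPF (0.70 ± 0.19, adjusted p = 0.024). Mki67 stood at 39.8, 53 and 54 CPM against 88.6, 69.4 and 78.8 CPM (0.72 ± 0.20, adjusted p = 0.03), and Rrm1 at 30.9, 42.2 and 37.6 CPM against 76.6, 48.3 and 50.1 CPM (0.69 ± 0.21, adjusted p = 0.043). The groups did not overlap for these 3, and 11 of the 40 genes were higher without overlap, as were 9.5% of all genes, although single libraries of E2f2 and Rrm1 lay close together. In this comparison same-numbered libraries deviated together, and with the replicate number as a block 2 genes were called and Rrm1 was not (adjusted p = 0.059). Without GF replicate 1 or GF replicate 2 there were 0 calls, and without GF replicate 3, SPF replicate 1 or SPF replicate 3 there was 1.

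COL against GF ileum at 10 weeks gave 2 genes called higher and 0 lower, where 5.1% of all genes were called higher and 4.04% lower. In 10 of the 40 all COL libraries were above all GF libraries, as in 15.4% of all genes. Mcm2, a helicase subunit, stood at 47.5, 48.5 and 54.5 CPM in GF and at 73.7, 119 and 72.2 CPM in COL (0.81 ± 0.24, adjusted p = 0.032). Cenpa stood at 41.4, 54.7 and 42.7 CPM against 49.1, 71.3 and 136 CPM (0.89 ± 0.27, adjusted p = 0.039), with overlapping groups, and without COL replicate 3 its change was 0.36. There were 0 calls without GF replicate 1 or GF replicate 2, and 1 without GF replicate 3, COL replicate 2 or COL replicate 3. The call without GF replicate 3 was another gene, E2f2 (0.69, adjusted p = 0.041). Mcm2 (adjusted p = 0.071) and Cenpa (adjusted p = 0.15) were both lost there. SPF and COL are again compared with the same GF libraries.

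COL and SPF ileum differed in 0 of 40 genes at either age in edgeR, with 4 (6 weeks) and 2 (10 weeks) at an unadjusted p under 0.05, where 7.92% and 7.97% of all genes passed, and 0 in DESeq2. Over all genes 0.0227% were called higher and 0.0756% lower at 6 weeks, and 0.068% and 0.0227% at 10 weeks. Between 6 and 10 weeks, SPF ileum gave 2 genes called higher, where 0.574% of all genes were. Mki67 rose from 31.6, 30.9 and 44.3 CPM to 88.6, 69.4 and 78.8 CPM (1.01 ± 0.20, adjusted p = 0.017), and Prc1 from 23.5, 24.4 and 34.9 CPM to 60.2, 44.2 and 78.3 CPM (1.01 ± 0.24, adjusted p = 0.04). The ages did not overlap for either gene. There were 0 calls without 6-week SPF replicate 1 or replicate 2, and 1 without 10-week SPF replicate 1 or replicate 3. Between the ages the scaling moved log2 changes by -0.14 in SPF and by -0.22 in COL ileum.

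With age, GF ileum gave 0 of 40 calls in edgeR (0% of all genes were called higher) with 2 at an unadjusted p under 0.05 (3.8% of all genes), and COL ileum gave 0 (1.62% of all genes) with 2 (17.6%). DESeq2 called 0 with age in GF ileum. DESeq2 called 1 gene with age in COL ileum (Mcm6, 0.63, adjusted p = 0.035). Tests of the difference between the ages in each microbiota effect called 0 of 40 genes in edgeR and in DESeq2. At an unadjusted p under 0.05 they gave 2 genes for SPF against GF, 4 for COL against GF and 5 for COL against SPF, where 8.55%, 10.4% and 10.1% of all genes passed. Called higher at 10 weeks were 0.00756%, 0.128% and 0.0756% of all genes, and called lower 0.00756%, 0.0151% and 0.0907%. The largest of these differences by p was that of Prc1 in COL against SPF ileum, at -1.26 ± 0.34 (adjusted p = 0.16).

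**Figure D4:**
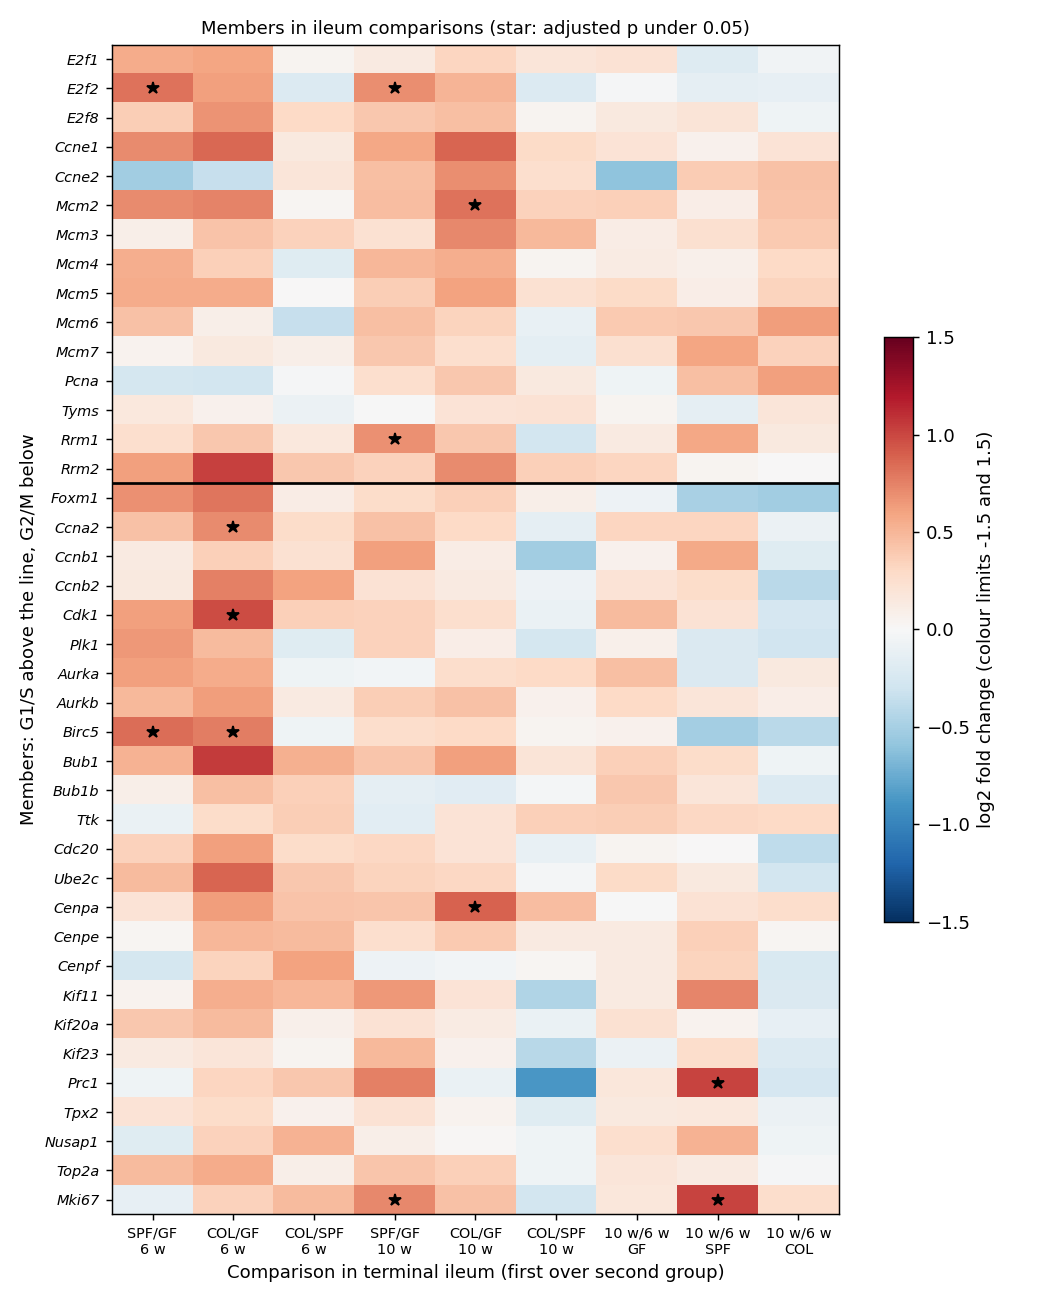
Heat map of the log2 fold change of the 40 genes (rows) in the 9 ileum comparisons (columns), with colours limited to changes of 1.5 in either direction and a star for an adjusted p under 0.05. Stars are sparse, with 2 or 3 in each comparison with GF ileum and 2 for age in SPF ileum.

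Of the listed companions in the ileum, Ccnd1 was called higher in each comparison with GF: by 1.25 (adjusted p = 1e-05) in SPF at 6 weeks, by 0.98 (adjusted p = 0.00035) in COL at 6 weeks, by 0.99 (adjusted p = 0.00024) in SPF at 10 weeks and by 1.24 (adjusted p = 8.9e-06) in COL at 10 weeks. Its mean at 10 weeks was 157 CPM in GF, 302 CPM in SPF and 372 CPM in COL. Cks1b, a small partner of cyclin-dependent kinases, was called higher in COL at 6 weeks (0.71, adjusted p = 0.019) and at 10 weeks (0.94, adjusted p = 0.0011). Cdk6, a cyclin D kinase, was called lower at 10 weeks (-0.68 in SPF and -0.69 in COL). Of the 35 further mitosis genes 3, 5, 0 and 2 were called higher, and of the 32 replication genes 0, 0, 1 (Pold1, 1.10, adjusted p = 0.03) and 1 (Dbf4, 0.78, adjusted p = 0.041), in SPF and COL at 6 weeks and SPF and COL at 10 weeks. Over all genes, 4.37%, 2.78%, 4.22% and 5.1% were called higher in these comparisons.

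Lymphocyte markers differed between ileum libraries. Summed B cell markers, a list that includes follicle genes, stood at 772, 14 and 9.4 CPM in 10-week SPF, 133, 406 and 165 CPM in 10-week COL, 70.3, 9.2 and 7.57 CPM in 10-week GF and 92.3, 7.88 and 6.27 CPM in 6-week GF ileum. In 6-week COL (5.91 to 10.2 CPM) and 6-week SPF ileum (6.28 to 12.3 CPM) they were low, and in the 6-week COL libraries Cd79a, Fcer2a and Gcsam had no reads. The 10-week SPF library with 772 CPM also had the highest level of that group for 13 of 15 G1/S genes in CPM. After scaling this held for 9 of 15. Its G1/S sum was 938 CPM against 565 and 592 CPM. For the 25 G2/M genes, this library and replicate 3 were each highest for 11 in CPM. After scaling they were highest for 7 and 15. The G2/M sums of that group were 1434, 1217 and 1420 CPM. The 10-week COL library with 406 CPM had a G1/S sum of 887 CPM against 678 and 696 CPM. Its G2/M sum was 1475 CPM against 1085 and 1382 CPM. The GF libraries with 70.3 and 92.3 CPM had G1/S sums of 522 and 480 CPM, beside 526 and 560 and 456 and 491 CPM in the others. Their G2/M sums were 994 and 1040 CPM, beside 1228 and 1082 and 1039 and 908 CPM in the others. Summed T cell and intraepithelial lymphocyte markers stood at 292, 288 and 627 CPM in 10-week SPF ileum. They stood at 117 to 126 CPM in 10-week COL and at 3.9 to 9.14 CPM in 10-week GF ileum. At 6 weeks they stood at 119, 127 and 276 CPM in SPF ileum. The 6-week sums were 17.5 to 18.8 CPM in COL and 3.95 to 26.9 CPM in GF ileum. Smooth muscle markers stood at 1540, 1944 and 203 CPM in 10-week SPF ileum. Replicate 3 of that group, at 203 CPM, had the fewest assigned reads of the 30 libraries (2233837). The part of these markers in the results was not tested.

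**Figure D5:**
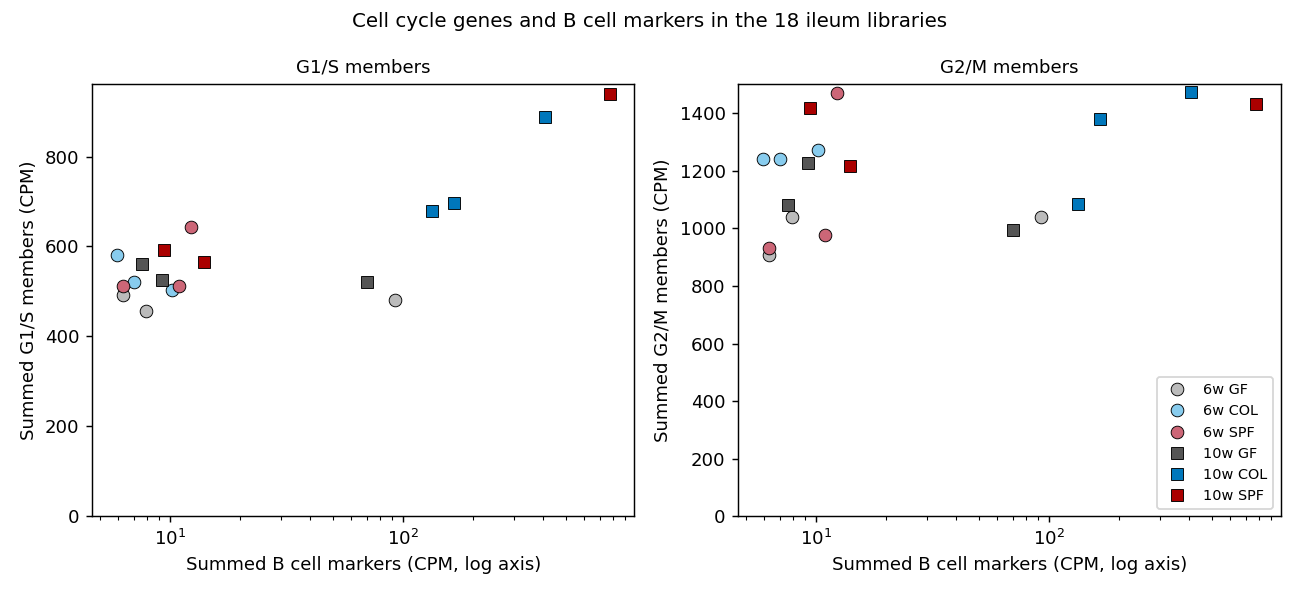
Summed level of the G1/S genes and of the G2/M genes (CPM) against the summed level of B cell markers (CPM, log axis) in the 18 ileum libraries. The libraries with 772 and 406 CPM of B cell markers have G1/S sums of 938 and 887 CPM, the highest of the 18. Their G2/M sums are 1434 and 1475 CPM, beside 1471 CPM in a 6-week SPF library with 12.3 CPM of B cell markers.

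Untreated colon and ileum were compared at 10 weeks. In SPF mice 28 of 40 genes were called lower in colon and 0 higher (also 0 in DESeq2), where 17.2% of all genes were called lower and 15.3% higher. These were 12 of 15 G1/S genes (median -1.10) and 16 of 25 G2/M genes (median -0.93). In COL mice 31 were called lower and 0 higher (also 0 in DESeq2), where 14.3% of all genes were called lower and 11.9% higher. These were 9 of 15 G1/S genes (median -0.91) and 22 of 25 G2/M genes (median -1.28). Calls of 18 of the 28 in SPF and 24 of the 31 in COL held in each alternative run. Leaving out 1 library left 21 to 31 genes called lower in SPF and 24 to 31 in COL. E2f2 was lower by 2.23 ± 0.21 in SPF (adjusted p = 3.8e-10) and by 2.13 in COL (adjusted p = 9.5e-10) on the log2 scale. For Cenpa the change was -0.83 in SPF (adjusted p = 0.022, not called in 4 of the alternatives) and -2.41 ± 0.29 in COL (adjusted p = 7.1e-08). The changes were -1.80 and -1.65 for Top2a, -1.82 and -2.11 for Cdc20 and -1.29 and -1.88 for Plk1. Tyms was not called, at 0.27 and 0.23.

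Of the further lists, 15 of 32 replication genes and 18 of 35 mitosis genes were called lower in SPF colon than ileum, and 12 and 26 in COL. Of the crypt stem markers 5 of 8 were called lower in SPF and 4 of 8 in COL, while smooth muscle markers were called higher in 8 of 8 and 3 of 8. The part of these markers was not tested. Over all genes 17.2% were called lower and 15.3% higher in SPF, and 14.3% and 11.9% in COL. After DSS, all 3 DSS-treated SPF libraries exceeded all 3 SPF ileum libraries in CPM for 17 of 40 genes (42.5%, against 18.3% of all genes), and the same held in COL for 16 (40%, against 19% of all genes). These were 5 and 4 G1/S genes and 12 and 12 G2/M genes, and no test was made.

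The 40 genes lie on 16 chromosomes. In the GENCODE annotation, Mcm7, Foxm1 and Top2a share exon sequence with another gene on their own strand, and E2f8, Ccne2, Mcm7, Ccna2, Plk1, Cdc20, Ube2c, Kif20a, Prc1 and Nusap1 with a gene on the other strand. Whether counting used strand is not given in the sources used here, so counts of these genes are less certain, as are those of Tyms, which has a pseudogene of its name in the tables.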

How the data were processed

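Total RNA of whole terminal ileum (18 libraries) and distal colon (12) was made into QuantSeq 3′ libraries for Ion Torrent sequencing, per the labels' protocols. The deposited values are raw read counts per gene symbol, 1 table per library. Trimmomatic 0.36, FastQC 0.11.5, STAR 2.5.3a, HTSeq and mm10 are named in the submitters' processing notes; the annotation and strand setting are not given in the sources used here. The 5 HTSeq summary lines were left out; 44.6% to 54.1% of reads per library were assigned to genes and 28% to 36.9% were not uniquely aligned.

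Genes were filtered (filterByExpr), scaled by trimmed means and tested with edgeR 4.0.16 (R 4.3.3) in 1 fit each for colon (12855 genes), ileum (13233) and all 30 libraries (13807, for colon against ileum), with Benjamini-Hochberg adjustment over all genes of the fit and 19 comparisons. The alternatives were DESeq2 1.42.0, its size factors in edgeR, no filter, fits on the compared libraries only, the replicate number as a block, and leaving out each library. Correlations of same-numbered libraries (0.25, 0.19 and 0.16) were all over 0.1 in SPF against GF ileum at 10 weeks only. In data simulated for DSS against untreated SPF colon, 19.5% of 87 genes changed 2-fold and 79.1% of 110 changed 4-fold were recovered. The simulation changed few of its 12669 genes, while 12.2% and 11.9% of all genes were called higher and lower in the real comparison. The shares recovered need not hold for the real data. No 2 libraries of a group agreed within sampling noise. Reads without molecular identifiers are not independent molecules. All 40 genes are named; of each other list, up to the 3 genes of smallest p per comparison, and markers at 0, of which 1 is not reported here. The 40 genes and the lists were chosen with earlier results of these data known.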

Additional observations from a re-analysis of the deposited data

Results flagged for a closer look

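Over 9 pairs of comparisons and 40 genes, Pcna moved in opposite ways without overlap, in unscaled CPM, at the 2 ages of the COL against GF ileum comparison. At 6 weeks Pcna stood at 37.8, 25.4 and 28.1 CPM in GF and at 15.7, 24.6 and 22.6 CPM in COL, a log2 change of -0.28 ± 0.22 (adjusted p = 0.56 in edgeR). At 10 weeks it stood at 23.9, 33.4 and 28.3 CPM in GF and at 37.8, 33.7 and 41.5 CPM in COL, a change of 0.40 ± 0.21 (adjusted p = 0.29). The difference between the ages was 0.68 ± 0.30 and was not called (adjusted p = 0.44). After trimmed-mean scaling the groups overlapped at both ages: Pcna stood at 34.6, 23.5 and 27.5 scaled CPM in GF and 16.4, 27.7 and 26.2 in COL at 6 weeks, and at 22.6, 31.6 and 27.5 against 36.6, 31.5 and 39.8 at 10 weeks.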

How the results depend on the processing

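No change in the processing reversed a reported count or called change. Counts of the 40 genes moved by over 1.5 times in these cases. DESeq2 called 1 gene lower in untreated COL than SPF colon, 7 higher in COL than GF ileum at 6 weeks and 1 higher with age in COL ileum. No filter gave 5 in COL against GF ileum at 6 weeks. Fits on the compared libraries only gave 8 (SPF against GF, 6 weeks), 9 (COL against GF, 6 weeks), 0 (SPF against GF, 10 weeks) and 0 (age in SPF ileum). Leaving out 1 library gave 21 to 32 calls for DSS in COL colon, 0 to 1 for lower in untreated COL than SPF colon, 1 to 2 and 1 to 6 for SPF and COL against GF ileum at 6 weeks, 0 to 4 and 0 to 3 at 10 weeks, and 0 to 2 for age in SPF ileum. With class means of log2(CPM + 1) in place of sums, the class ratio changed by -0.15 after DSS in SPF colon and by 0.02 between DSS-treated COL and SPF colon, where sums gave 0.15 and -0.13.

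With the replicate number as a block, 36 genes were called for DSS in SPF colon, 34 for DSS in COL colon, 3 and 2 for SPF against GF ileum at 6 and 10 weeks and 32 for colon against ileum in SPF. Same-numbered libraries all deviated together in SPF against GF ileum at 10 weeks only. Whether the numbers stand for pairs of libraries is not known, there or elsewhere. DESeq2's size factors changed none of 246 single-gene calls or non-calls that were followed. With 3 libraries a group, changes of 2-fold were mostly missed in the simulated colon data, and an uncalled gene is not shown to be unchanged.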
